A study of Mus musculus with 4 samples.

Results

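Nuclear receptors are transcription factors that bind small fat-soluble ligands such as steroids, retinoids, thyroid hormone and oxysterols, or that act without a known ligand and are then called orphan receptors. The genes were taken by name from the count table, by a pattern that covers the receptor symbols NR0 to NR6 and the receptors with names of their own, and 49 of its 22609 genes matched. The measurements come from 4 RNA sequencing libraries of cells that a sorter had selected for FAP, a surface protease of fibroblasts in tumours, out of pancreatic ductal adenocarcinoma that arises spontaneously in mice of C57BL/6 background. FAP+ CD34+ cells gave 2 libraries and FAP+ CD34- cells the other two, CD34 being a surface sialomucin carried by endothelial, haematopoietic progenitor and some stromal cells. The labels give neither the tumour alleles, nor the age, the treatment or the number of animals behind a library. The comparison asks how the FAP+ cells of this tumour differ by CD34.

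Most nuclear receptors share a zinc-finger domain that reads short DNA motifs and a domain that holds the ligand and recruits coactivators or corepressors. Many bind as pairs with a retinoid X receptor, while steroid receptors pair with themselves. In pancreatic fibroblasts and stellate cells the receptors for vitamin A, vitamin D and glucocorticoids are known for their ties to the resting, fat-storing state and to inflammation. In bulk RNA of a sorted fraction, fewer cells of a type and less RNA per cell cannot be told apart.

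Total counts lay between 10322354 and 14633561 per library, so that 3 counts, the limit that a count of 0 allows, equalled 0.213 to 0.296 CPM by counting error alone. Fibroblast genes were abundant in every library, with a summed level of 39000 to 40900 CPM over 10 genes led by Col1a2, a chain of collagen I. Cd34 stood at 146 and 291 CPM in CD34+ and at 17.4 and 24.9 CPM in CD34- libraries. Fap stood at 80.5 and 39.5 CPM against 135 and 141 CPM. Markers of other cells were present at low levels and several lay higher in CD34+ libraries. The summed level of 7 endothelial markers was 59.2 to 76.1 CPM against 23.6 to 26.5 CPM, with 6 of 7 higher in both CD34+ libraries. That of 8 myeloid markers was 105 to 148 CPM against 59.9 to 71.5 CPM, with 3 of 8 higher in both and led by Lyz2 (lysozyme). Of all tested genes 24.8% were higher in this way. Summed mesothelial markers (6 genes, led by Krt8) were 428 to 626 against 305 to 483 CPM. Of these, Wt1 (210 and 119 against 54.8 and 82.6 CPM), Upk3b and Lrrn4 were higher in both CD34+ libraries. Msln, Krt8 and Krt19, which the epithelial list also holds, overlapped. Summed epithelial markers (6 genes, led by Krt18) were 352 to 588 against 279 to 508 CPM. Pericyte markers (7 genes, led by Kcnj8) were 288 to 387 against 387 to 541 CPM, and acinar markers (4 genes, led by Cela1) 9.48 to 26.9 against 11.8 to 13.6 CPM. Adipocyte markers (5 genes) summed to at most 2.33 CPM in any library and their defining gene Adipoq reached at most 0.359 CPM. T and NK cell markers (5 genes, led by Cd3e) summed to 20.3 CPM in CD34+ replicate 1 and to at most 1.96 CPM elsewhere. Cd3e alone was 19.4 CPM in CD34+ replicate 1, where Cd3g, Cd2, Cd8a and Nkg7 were each at most 0.395 CPM. Replicate 1 of both fractions held Xist at 237 and 155 CPM, against 2.62 and 0.284 CPM in replicate 2, while the Y-linked Ddx3y was 35.4 and 36.7 CPM in replicate 1 and 152 and 163 CPM in replicate 2. The part of these differences in the receptor results was not tested.

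The orphan receptors Nr4a1 and Nr4a2 led the family by mean level, and most of the remaining members were transcribed at modest levels. Levels of different genes are compared here by deposited RPKM, which scales reads to gene length and library. Of the 49 genes, 8 had a mean of at least 10 RPKM over the 4 libraries, 19 more lay between 1 and 10, and 22 lay below 1. Nr4a1 (Nur77) came first in all 4 libraries, at 463, 544, 296 and 630 RPKM in CD34+ replicates 1 and 2 and CD34- replicates 1 and 2, and by itself made up 49.9% to 62.3% of the summed receptor RPKM. Nr4a2 (Nurr1) followed by mean, at 116, 93.1, 35.1 and 139 RPKM. Next by mean came the COUP-TF receptors Nr2f6 (28.0 RPKM) and Nr2f2 (23.55 RPKM), the thyroid hormone receptor gene Thra (21.4 RPKM), the oxysterol receptor gene Nr1h2 (20.15 RPKM), Rora (17.7 RPKM), the glucocorticoid receptor gene Nr3c1 (11.97 RPKM), Nr1d1 (9.37 RPKM) and Rxrb (8.92 RPKM). From the second place on neighbours overlapped in their library values. In CD34- replicate 1 Nr4a2 held place 3, below Nr2f6 at 38.7 RPKM. Nr2f6 ran from 18.5 to 38.7 RPKM and Nr2f2 from 15.6 to 27.2 RPKM. The deposited FPKM kept 8 of these 10 among the 10 highest. Nr2f2 and Nr3c1 moved down to places 12 and 17 there, and Nr4a2 held place 5 in CD34- replicate 1, so the order below Nr4a1 is uncertain.

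**Figure D1:**
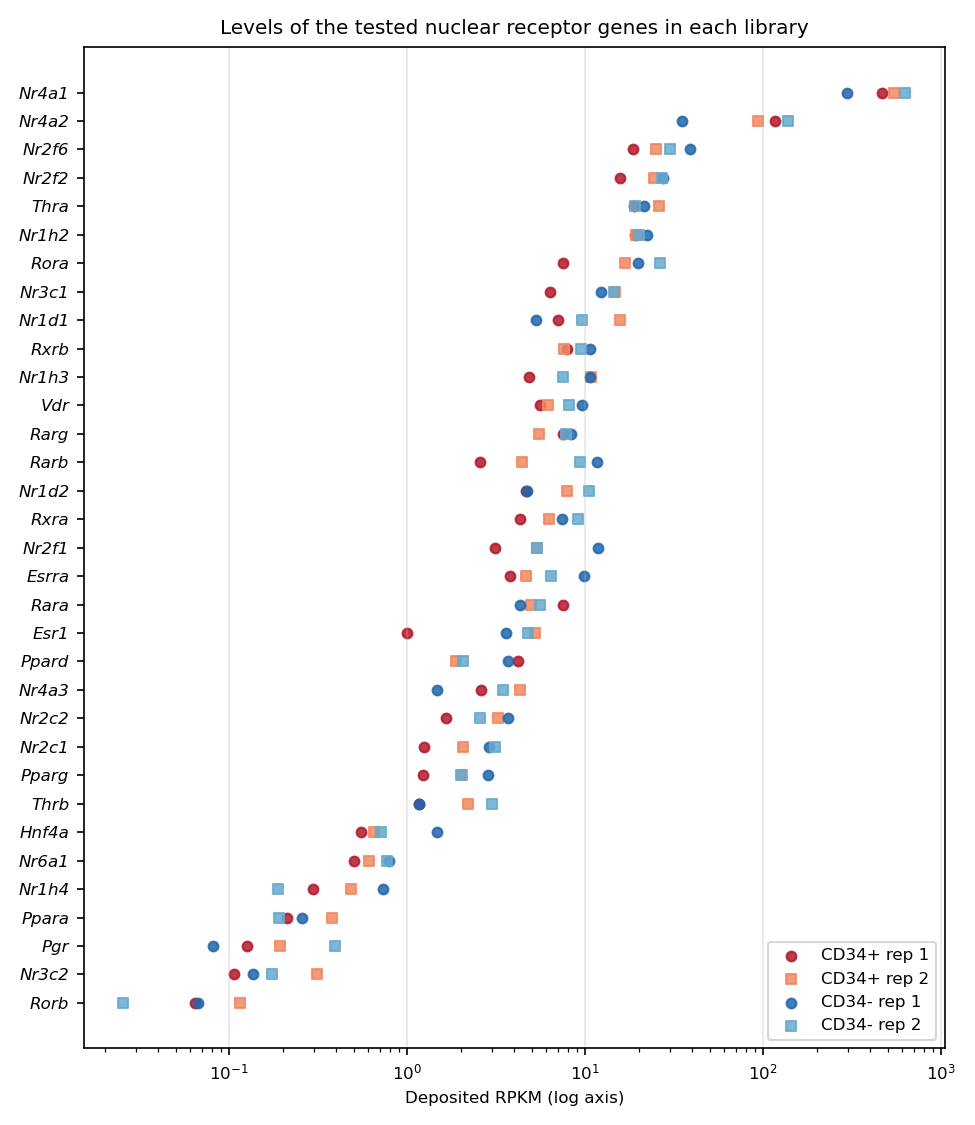
Deposited RPKM (log axis) of tested nuclear receptor genes, ordered by their mean, with a point for each of the 4 libraries. Nr4a1 lies highest in every library (296 to 630 RPKM). On this scale the point of CD34+ replicate 1 is the lowest of the 4 for 21 of the genes. That count depends on the library totals used for RPKM, and the share over all genes was not counted. Thra, for example, is lowest there in RPKM (18.9) but not in CPM (77.2).

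No receptor gene passed the test between CD34+ and CD34- cells once p was adjusted over all genes. Of the 49 genes 34 had enough counts to be tested, and 0 were called higher and 0 lower at an adjusted p of 0.05 (edgeR quasi-likelihood test), as were 0% of all 13875 tested genes in each direction. DESeq2 called 0 receptors higher and 1 lower, Rarb (2.85% and 1.30% of all genes), while limma voom called 0. No receptor was called with the replicate number as a block (0.281% of all genes higher, 0.166% lower) or without a filter on low counts (0.924% and 0.653%). At an unadjusted p of 0.05 the test gave 2 receptors on the higher side (5.88%) and 1 on the lower side (2.94%), against 9.81% and 6.65% of all tested genes (edgeR). They included Thra on the higher side and Rarb on the lower side. Both shares are below those of all genes. Their median log2 fold change, CD34+ over CD34-, was 0.05 against -0.02 for all tested genes, with a range from -1.22 to 1.34.

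On CPM, groups of libraries did not overlap for 15 of the 34 receptors, where 51.3% of all tested genes did not. Of the 15, 8 were higher in CD34+ (23.5%, against 24.8% of all tested genes) and 7 lower (20.6%, against 26.5%). On the deposited RPKM the groups of Thra, Nr1d1, Rara, Nr4a3, Ppara and Rorb overlapped. Nr1h2 was apart the other way there, at 19.1 and 19.3 against 22.1 and 20.02 RPKM. The 7 lower genes stayed apart on RPKM. Within each replicate number the difference pointed the same way for 18 members, 10 higher and 8 lower (29.4% and 23.5%, against 33.9% and 35.3% of all tested genes). The difference between the group means on the log2 CPM scale exceeded the differences between replicates of either group for 7 members, which is 20.6% of them, against 36.8% of all tested genes. They included Rarb, Thra, Nr1d1, Ppara, Nr2c1 and Rorb. On the log2 RPKM scale with a pseudocount of 1 the median of all genes shifted to -0.31 and that of the receptors to -0.23. With 2 libraries a group an exact permutation test cannot go below p = 0.333, and none was run on single genes.

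**Figure D2:**
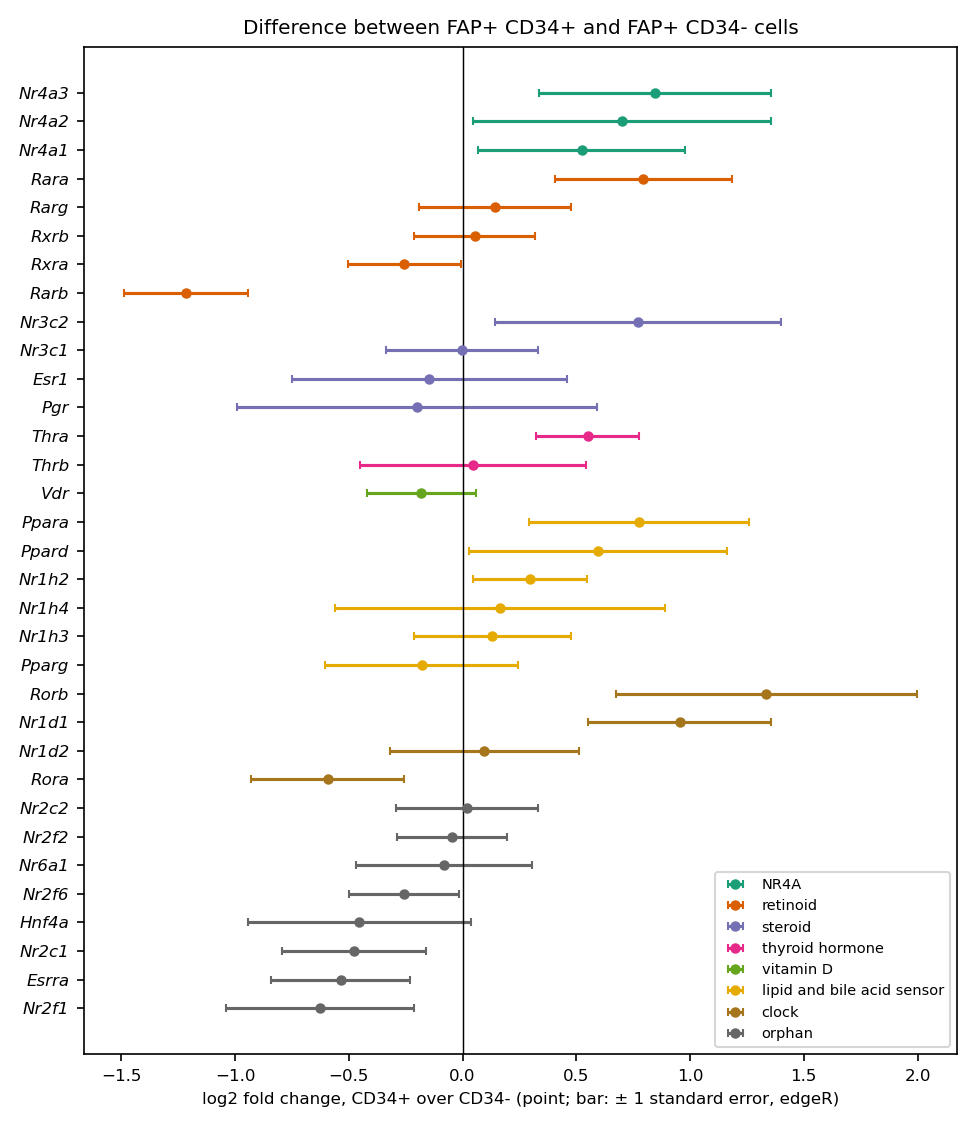
Log2 fold change of CD34+ over CD34- cells for tested receptor genes, grouped by ligand or kind, with 1 standard error (edgeR, 2 libraries per group). Rarb (-1.22) lies farthest to the left and Rorb (1.34) farthest to the right, and no gene passed at an adjusted p of 0.05.

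The NR4A receptors are immediate early genes: cells transcribe them within minutes of a stimulus, and they regulate targets without a classical ligand. All 3 had a positive log2 fold change, with 1 of 3 free of overlap in CPM, and in all 3 the lowest value was that of CD34- replicate 1. Nr4a1 was 2086 and 1838 CPM in CD34+ libraries and 851 and 1882 CPM in CD34- libraries. Thus CD34- replicate 2 lay within the CD34+ range and the log2 difference of 0.52 (SE 0.46; edgeR, adjusted p = 0.584) was close to its error. Nr4a2 was 669 and 403 CPM against 129 and 531 CPM, which spans 4.10-fold between the CD34- replicates, for a log2 fold change of 0.70 (SE 0.66; edgeR, adjusted p = 0.609). Nr4a3 (Nor1), far less abundant, was 8.89 and 11.1 CPM against 3.23 and 7.89 CPM, with groups just apart and a log2 fold change of 0.84 (SE 0.51; edgeR, adjusted p = 0.44). On the deposited RPKM its groups overlapped (2.59 and 4.30 against 1.48 and 3.47). Without CD34- replicate 1 the 3 fold changes shrank to 0.02, -0.03 and 0.30, and without CD34- replicate 2 they grew to 1.21, 2.05 and 1.63. The sizes for this group therefore rest on which CD34- library is used.

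Other immediate early genes did not share a single order of libraries. For these and the lists below, 9.81% of all genes were higher and 6.65% lower at an unadjusted p under 0.05. A positive log2 fold change was found for 48.7% of all tested genes. Of 9 tested, 6 were positive with a median log2 fold change of 0.20, 0 passed over all genes, and 1 had an unadjusted p under 0.05, Fosb, a partner of Jun in AP-1 (2775 and 2556 against 699 and 1652 CPM; edgeR, adjusted p = 0.302). Zfp36, whose protein destabilises cytokine mRNA, was 1092 and 1234 against 504 and 882 CPM, and its lowest value too was that of CD34- replicate 1. Atf3, a stress-induced repressor, was 188 and 344 against 148 and 238 CPM. Egr2 lay the other way, at 111 and 92.2 against 137 and 188 CPM. CD34- replicate 1 was also lowest for Fosb, Atf3, Junb (1244 CPM) and Egr1 (917 CPM). For Fos, Jun and Ier2 the lowest value was instead that of CD34+ replicate 1, at 1981, 1178 and 376 CPM. Junb, Egr1, Fos, Jun and Ier2, outside the rule for names, were chosen after their values were seen.

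**Figure D3:**
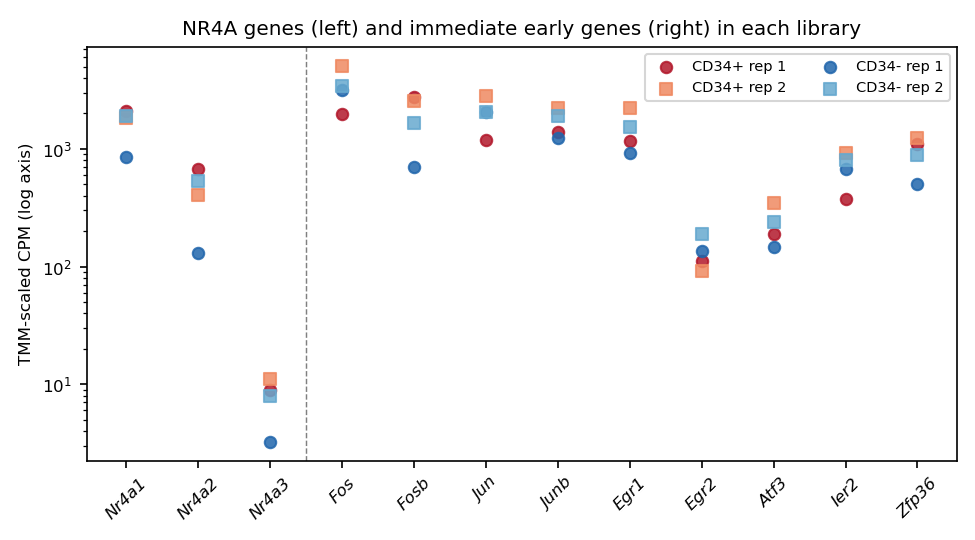
TMM-scaled CPM (log axis) of the 3 NR4A genes and 9 other immediate early genes, with a point per library. CD34- replicate 1 lies lowest for Nr4a1 (851 CPM), Nr4a2 (129 CPM) and Nr4a3 (3.23 CPM), and also for Fosb, Junb, Egr1, Atf3 and Zfp36. CD34+ replicate 1 lies lowest for Fos (1981 CPM), Jun and Ier2.

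The promoters of the 3 NR4A genes are shown because all 3 were lowest in the same library and are known targets of cAMP signalling. The factor CREB binds an element whose core is CGTCA, which reads as TGACG when the other strand is printed. Sequences are the 250 bases before the RefSeq start site in GRCm38.p6, another build than the mm9 of the count tables, with each match to that core on either strand in capitals. Nr4a1 lies at chr15:101266596-101266845 on the plus strand, Nr4a2 at chr2:57124004-57124253 on the minus strand and Nr4a3 at chr4:48045055-48045304 on the plus strand.
Nr4a1: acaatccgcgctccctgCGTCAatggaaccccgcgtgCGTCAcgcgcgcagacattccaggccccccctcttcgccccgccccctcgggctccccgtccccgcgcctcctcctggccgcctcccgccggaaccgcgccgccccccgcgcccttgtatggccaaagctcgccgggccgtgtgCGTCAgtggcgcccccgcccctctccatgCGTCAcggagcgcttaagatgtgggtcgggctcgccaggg
Nr4a2: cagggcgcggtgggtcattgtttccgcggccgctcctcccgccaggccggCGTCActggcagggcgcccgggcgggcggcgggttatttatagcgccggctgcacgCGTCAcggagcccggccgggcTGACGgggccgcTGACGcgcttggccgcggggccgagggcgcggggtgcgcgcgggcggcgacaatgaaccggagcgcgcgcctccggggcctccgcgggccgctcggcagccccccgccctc
Nr4a3: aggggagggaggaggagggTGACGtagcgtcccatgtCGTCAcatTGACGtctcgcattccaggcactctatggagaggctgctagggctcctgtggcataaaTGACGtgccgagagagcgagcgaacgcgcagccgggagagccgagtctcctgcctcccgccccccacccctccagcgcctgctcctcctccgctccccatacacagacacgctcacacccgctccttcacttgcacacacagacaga
Each window held 4 matches that do not overlap each other. At least 1 match was found in 17.8% of all 32851 promoter windows of this length and in 20.3% of the 64 windows of receptor genes, but 4 or more in 0.137% of all windows and in 3 of the 64, those shown. The threshold of 4 was set after the sequences were seen. The full palindrome TGACGTCA was in none of the 3 windows and in 1.55% of all. Of the 49 receptor genes 43 had an entry by symbol, and Thra, Nr3c1, Hnf4g and Nr5a1 were among those without one.

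Among the retinoic acid receptors Rarb lay lower in CD34+ cells, while Rara lay higher only narrowly and in CPM alone. The shares of both in the group did not overlap between the fractions, though no member passed by edgeR. Rarb, a receptor for retinoic acid whose own transcription is induced by retinoic acid, was 12.9 and 16.7 CPM in CD34+ libraries and 37.5 and 31.4 CPM in CD34- libraries. Both CD34- libraries lay above both CD34+ libraries, in counts as in RPKM (2.56 and 4.40 against 11.6 and 9.39). The log2 fold change was -1.22 (SE 0.27), or 2.32-fold higher in CD34- cells, with adjusted p = 0.177 over all genes by edgeR and 0.0434 by DESeq2. Its fold change kept its sign in all 15 alternatives, between -1.61 and -1.06, while its adjusted p lay between 0.0434 and 0.576.

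Rara, the most widely expressed receptor for retinoic acid, lay the other way, at 46.2 and 23.1 against 17.0 and 22.9 CPM. Its groups were apart only narrowly, and its log2 fold change was 0.79 (SE 0.39; edgeR, adjusted p = 0.364), or 0.20 without CD34+ replicate 1. The groups overlapped on the deposited RPKM (7.51 and 4.99 against 4.33 and 5.605) and FPKM (8.03 and 5.74 against 5.28 and 6.92). Rarg, the third receptor of this kind, was 39.6 and 21.9 against 28.3 and 27.4 CPM and overlapped. As a share of the summed RPKM of the 3 genes, Rarb made up 14.6% and 29.5% in CD34+ and 47.8% and 41.2% in CD34- libraries. Rara made up 42.8% and 33.5% against 17.8% and 24.6%, and Rarg 42.6% and 36.9% against 34.3% and 34.2%. These shares do not depend on how libraries are scaled, and each fixes the others in part. On RPKM the shares did not overlap between groups for any of the 3. On the deposited FPKM, examined after these values were seen, Rarb (9.65% and 19.1% against 31.5% and 24.1%) and Rara (44.1% and 36.5% against 21.8% and 27.9%) were apart in the same directions. Rarg lay the other way there, at 46.3% and 44.4% against 46.7% and 48.0%. They were not tested. Of 7 pericyte markers 4 lay on the same side as Rarb, 3 of them without overlap, as did 26.5% of all tested genes. Rgs5 was 2.17 and 7.27 CPM in CD34+ against 43.2 and 93.3 CPM in CD34- libraries, and Mcam 28.4 and 16.4 against 98.0 and 107 CPM. The other 3, Kcnj8, Notch3 and Abcc9, had positive log2 fold changes of 0.57, 0.40 and 0.24 with overlap. The markers' part in the Rarb difference was not tested.

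**Figure D4:**
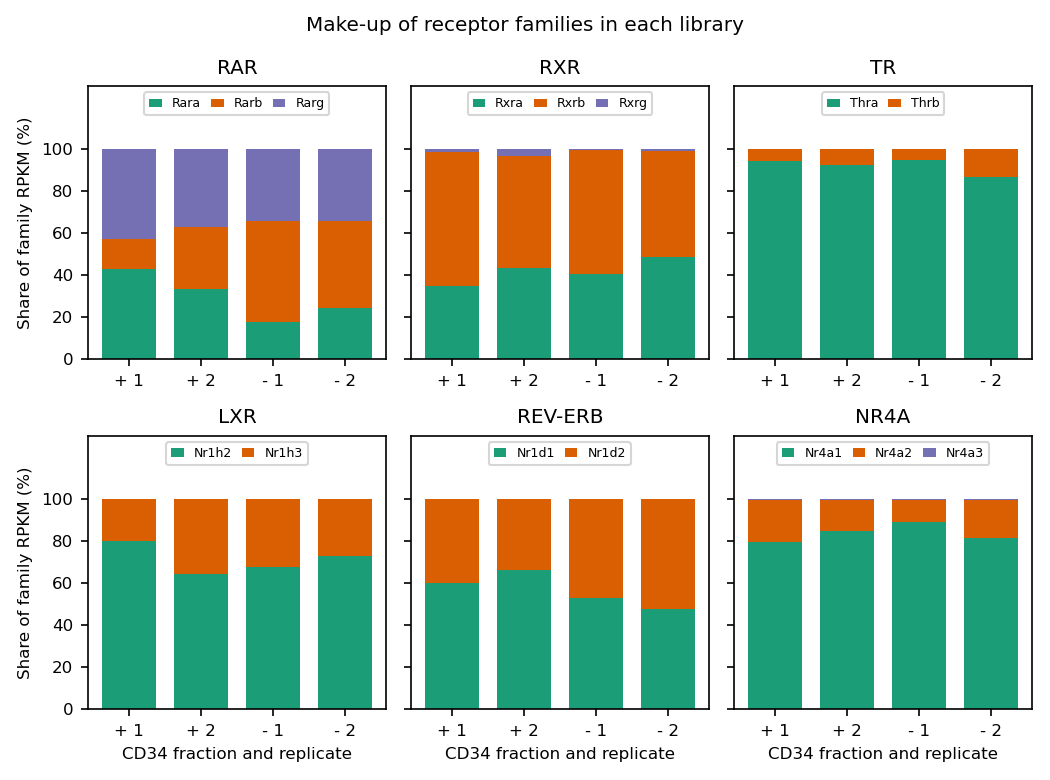
Share of each member in the summed deposited RPKM of its family, per library (+ 1 and + 2, CD34+ replicates; - 1 and - 2, CD34- replicates). Rarb takes 14.6% and 29.5% of the RAR sum in CD34+ and 47.8% and 41.2% in CD34- libraries, while Thra takes at least 86.5% of the thyroid receptor sum in all 4.

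The Rarb promoter is shown for its known retinoic acid response element. The 250 bases before its start site lie at chr14:16575477-16575726 on the minus strand (RefSeq, GRCm38.p6), and capitals mark a match to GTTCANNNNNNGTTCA. This pattern of 16 bases holds the same 5 bases in the same orientation with 6 between them. They are part of a hexamer repeated after 5 bases, and a base of that repeat lies outside the capitals.
Rarb: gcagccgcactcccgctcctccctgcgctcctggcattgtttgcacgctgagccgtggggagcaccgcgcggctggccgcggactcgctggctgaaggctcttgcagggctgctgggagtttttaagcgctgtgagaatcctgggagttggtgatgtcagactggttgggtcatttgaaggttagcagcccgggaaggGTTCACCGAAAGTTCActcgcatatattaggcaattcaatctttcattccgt
The match begins 52 bases before the start site. This pattern, searched on both strands, was found in 0.067% of all 32851 windows and in 1 of the 64 receptor windows, this one.

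Retinoid X receptors are the shared partners of many receptors. Rxra was 41.5 and 44.9 against 45.1 and 58.2 CPM, with groups only just apart, and Rxrb was 37.7 and 27.4 against 32.6 and 30.2 CPM. Their log2 fold changes were -0.26 (SE 0.25) and 0.05 (SE 0.27), both with adjusted p of at least 0.618 (edgeR). Rxrg was nearly absent, at 7 and 19 counts against 2 and 5. Retinoic acid targets and carriers showed no common direction: 4 of 8 were positive, the median log2 fold change was 0.05, and 0 passed or had an unadjusted p under 0.05. Rarres2, encoding chemerin, was 46.2 and 85.4 against 35.6 and 47.6 CPM. Dhrs3, which returns retinal to retinol, was 188 and 225 against 258 and 265 CPM. Stra6, a retinol-uptake gene, was 67.3 and 8.87 against 54.5 and 82.2 CPM.

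Steroid receptors are held by chaperones in the cell until a hormone binds them. The oestrogen receptor gene Esr1 varied widely between the CD34+ replicates, at 7.80 and 30.8 CPM against 18.0 and 24.96 CPM. Its log2 fold change of -0.15 (SE 0.61; edgeR, adjusted p = 0.92) turned to 0.51 without CD34+ replicate 1. Within replicate number 1 it was lower in CD34+ cells and within number 2 it was higher. Xist and Y-linked transcripts, given above, also differed between the replicate numbers, and their part in the Esr1 values was not tested. Nr3c1, the glucocorticoid receptor gene and the most abundant steroid receptor here, was 72.7 and 128 against 90.2 and 111 CPM, a log2 fold change of -0.003 (SE 0.33). The progesterone receptor gene Pgr was 1.58 and 1.82 against 0.646 and 3.27 CPM, and Nr3c2, the mineralocorticoid receptor gene, was 0.79 and 1.75 against 0.646 and 0.853 CPM. Esr2, encoding the other oestrogen receptor, had 11 and 2 counts in CD34+ and 0 in both CD34- libraries and was not tested.

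Targets of the glucocorticoid receptor were mixed in direction, with more of them lower in CD34+ cells. Of 10 tested genes 4 were positive and 6 negative, the median log2 fold change was -0.60 (-0.02 for all genes), and 0 passed. Groups did not overlap for 2 higher and 5 lower, where 24.8% and 26.5% of all genes were so. Unadjusted p was under 0.05 for 1 higher and 3 lower (edgeR). The higher one was Mt2, a metallothionein (1128 and 811 against 469 and 225 CPM). Those lower were Tsc22d3, encoding GILZ (32.6 and 82.6 against 268 and 103 CPM), Fkbp5, a chaperone that restrains the receptor (55.3 and 61.9 against 125 and 79.7 CPM), and Ddit4, an inhibitor of mTORC1 (369 and 148 against 573 and 618 CPM). In Tsc22d3 and Fkbp5 the highest value was that of CD34- replicate 1. Hsd11b1, which regenerates active glucocorticoid and was chosen after its values were seen, was 224 and 895 against 306 and 670 CPM and followed the replicate number more than the fraction.

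Thra, encoding the main thyroid hormone receptor, had replicates close to each other. It was 77.2 and 80.1 CPM in CD34+ and 55.7 and 51.8 CPM in the CD34- fraction (log2 fold change 0.55, SE 0.23; edgeR, adjusted p = 0.302). On the deposited RPKM the groups overlapped (18.9 and 26.1 against 21.4 and 19.1), and its fold change on the log2(RPKM + 1) scale was 0.13. The median of all tested genes was lower on that scale too, at -0.31 against -0.02 by edgeR on counts. Thrb, the second receptor gene, was 12.8 and 18.3 against 8.26 and 21.9 CPM and overlapped. Transcripts of Thra and Nr1d1 overlap at their ends, on opposite strands, and without a stated strand setting their reads there cannot be told apart. Thra took 86.5% to 94.8% of the summed RPKM of Thra and Thrb. The deiodinase genes, chosen after their values were seen, differed widely in level: Dio3, which inactivates thyroid hormone, was 267 and 483 against 257 and 226 CPM, and Dio2, which activates it, was 50.1 and 41.2 against 4.53 and 33.4 CPM.

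Among receptors that sense lipids and bile acids 5 of 6 tested were positive, where 48.7% of all tested genes were, with 0 at an unadjusted p under 0.05 (edgeR). Nr1h2 (LXR beta), the most abundant, was 68.4 and 51.7 against 50.5 and 47.4 CPM, and Nr1h3 (LXR alpha) 17.2 and 28.7 against 24.3 and 17.8 CPM. The log2 fold changes were 0.30 (SE 0.25) and 0.13 (SE 0.35). That of Nr1h2 turned to -0.13 on the log2(RPKM + 1) scale, where the median of all tested genes was -0.31. Ppard, the PPAR gene with the highest mean RPKM, was 24.7 and 8.29 against 13.7 and 8.04 CPM and turned from 0.60 (SE 0.57) to -0.40 without CD34+ replicate 1. Pparg, the regulator of fat cell formation, was 4.15 and 5.16 against 6.11 and 4.48 CPM, a log2 fold change of -0.18 (SE 0.42). Ppara, a regulator of fatty acid oxidation, was 2.87 and 3.85 against 2.23 and 1.71 CPM, with groups apart and a log2 fold change of 0.78 (SE 0.48; edgeR, adjusted p = 0.453). On the deposited RPKM its groups overlapped (0.2115 and 0.3792 against 0.2575 and 0.1899). The bile acid receptor gene Nr1h4 was 1.18 and 1.45 against 1.87 and 0.498 CPM. On the log2(RPKM + 1) scale Nr1h3 and Nr1h4 turned negative too (-0.27 and -0.05), while Ppara and Ppard stayed positive (0.08 and 0.04). Nr1h5, Nr1i2 (PXR) and Nr1i3 (CAR) had at most 5 counts in any library.

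Of 8 LXR targets 5 were positive (median log2 fold change 0.15) and 0 passed, with 1 at an unadjusted p under 0.05. This was Pltp, a phospholipid carrier (206 and 156 against 51.8 and 107 CPM). Scd1, a fatty acid desaturase, was 39.3 and 61.2 against 226 and 58.5 CPM, with a single high library, CD34- replicate 1. Srebf1, a regulator of lipid synthesis, was 103 and 95.6 against 85.1 and 66.7 CPM and Apoe was 515 and 1262 against 681 and 492 CPM. Of 9 PPAR targets 6 were negative (median -0.48) and 0 passed, with 2 at an unadjusted p under 0.05. Lpl, a secreted lipase, was 282 and 388 against 987 and 1011 CPM (log2 fold change -1.57, SE 0.32; edgeR, adjusted p = 0.173), and Plin2, a lipid droplet coat gene, 41.5 and 56.7 against 101 and 70.1 CPM.

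Vdr, the vitamin D receptor gene, overlapped between fractions, at 44.0 and 36.6 CPM in CD34+ and 48.5 and 42.9 CPM in CD34- libraries, with a log2 difference of -0.18 (SE 0.24; edgeR, adjusted p = 0.724). Cyp24a1, which degrades vitamin D and is a well-known target of the receptor, had at most 0.364 CPM in any library, and Cyp27b1, which activates vitamin D, at most 1.68 CPM. Both were chosen after their values were seen.

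Receptors of the clock work against each other: REV-ERB proteins repress and ROR proteins activate the gene Arntl. Nr1d1 (REV-ERB alpha) was 33.7 and 56.0 CPM in CD34+ and 16.1 and 30.3 CPM in CD34- libraries, with groups just apart and a log2 fold change of 0.95 (SE 0.40; edgeR, adjusted p = 0.313). On the deposited RPKM its groups overlapped (7.05 and 15.6 against 5.27 and 9.55). The fold change was 0.52 without CD34+ replicate 2 and 0.53 without CD34- replicate 1. Rora lay the other way, at 22.3 and 37.6 against 38.1 and 52.6 CPM (log2 fold change -0.59, SE 0.34; edgeR, adjusted p = 0.415). For both genes replicate 2 of a fraction lay above replicate 1. Nr1d2 (REV-ERB beta) was 39.3 and 50.2 against 25.5 and 58.5 CPM and overlapped. Rorb was at 1.09 and 1.45 against 0.718 and 0.285 CPM (1.34, SE 0.66; edgeR, adjusted p = 0.368). Of the summed RPKM of the REV-ERB pair, Nr1d1 took 60.2% and 66.3% in CD34+ and 52.7% and 47.8% in CD34- libraries. On FPKM the shares overlapped, at 79.5% and 84.3% against 76.7% and 80.3%.

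Of the clock genes outside the receptor family, 14 were tested. Of these, 6 were positive, the median log2 fold change was -0.02, and 0 passed or had an unadjusted p under 0.05. Arntl itself, chosen after its values were seen, was 48.3 and 29.5 against 30.7 and 48.9 CPM. Cry2, a repressor of the clock, was 102 and 57.3 against 43.7 and 53.3 CPM, Npas2, a partner of Arntl, 20.3 and 24.4 against 10.2 and 17.9 CPM, and Cry1 8.10 and 6.91 against 11.4 and 11.3 CPM. Per1, which the glucocorticoid list also holds, was 92.5 and 46.2 against 62.5 and 53.3 CPM.

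The other orphan receptors mostly had negative fold changes: 7 of 8 tested, with a median of -0.36 and 0 at an unadjusted p under 0.05 (edgeR). Of all tested genes 48.7% were positive. Nr2f2, Nr6a1 and Hnf4a lay within their standard error. Nr2f2 and Hnf4a turned positive in some alternative settings, and Nr2c2, the positive one, turned negative in others. Nr2f2 (COUP-TFII), known in veins and in mesenchyme, was 120 and 141 CPM in CD34+ and 133 and 137 CPM in the CD34- fraction (log2 fold change -0.05, SE 0.24). Nr2f6 was 74.7 and 75.5 against 99.7 and 79.9 CPM (-0.26, SE 0.24), and Nr2f1 (COUP-TFI) was 13.8 and 17.9 against 33.4 and 15.7 CPM, so that a single library, CD34- replicate 1, lay apart. Without it the log2 fold change of Nr2f1 went from -0.63 to -0.02. Esrra, a regulator of mitochondrial genes, was 15.4 and 14.3 against 25.6 and 17.4 CPM (-0.54, SE 0.31; edgeR, adjusted p = 0.416). Nr2c1 (TR2) was 8.69 and 10.8 against 12.8 and 14.4 CPM (-0.48, SE 0.32), and Nr2c2 (TR4) was 22.9 and 33.9 against 32.6 and 23.5 CPM. Hnf4a, a factor of epithelial cells, was 4.35 and 3.85 against 7.47 and 3.77 CPM, and Nr6a1 was 5.63 and 5.16 against 5.68 and 5.76 CPM. Summed epithelial markers were highest in both replicates numbered 1 (588 and 508 CPM). Hnf4a was highest in CD34- replicate 1 (7.47 CPM) but not raised in CD34+ replicate 1 (4.35 CPM). The markers' part in the Hnf4a values was not tested.

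Of the receptor genes 15 had too few counts to be tested, with at most 19 in any library. For 11 of these both CD34+ libraries lay above both CD34- libraries, and for 0 below. Among all 7121 genes with a count that were not tested, 50.0% lay higher in this way and 1.61% lower, and 19627 and 19613 genes had a count in CD34+ against 17452 and 16818 in CD34- libraries. Besides those named above they included Esrrg (10 and 5 counts against 1 and 2), Hnf4g (8 and 4 against 0 and 0), Nr5a2 (10 and 2 against 2 and 2), Nr5a1 (3 and 2 against 0 and 0), Nr2e1 (4 and 3 against 1 and 0), Nr2e3 (5 and 1 against 1 and 0), Nr0b2 (4 and 1 against 0 and 1), Nr0b1 (1 and 0 against 0 and 0) and Esrrb (0 and 1 against 1 and 0). At such counts a single library can set the order. CD34+ replicate 1 held most of the counts of Esr2, Nr5a2, Nr2e3, Hnf4g, Nr0b2, Esrrg and Nr5a1 and the only count of Nr0b1. In Rxrg and Nr1h5 it was CD34+ replicate 2 that held most.

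Coactivators, which nuclear receptors recruit to switch genes on, had 9 of 14 genes positive, a median log2 fold change of 0.07 and 0 that passed. An unadjusted p under 0.05 was found for 3, all higher (edgeR). Groups did not overlap for 5 higher and 1 lower of the 14, where 24.8% and 26.5% of all genes were so. The lower one was Ncoa4, a ferritin receptor in autophagy, at 27.9 and 67.8 against 80.45 and 101 CPM, named after its values were seen. Pprc1, a relative of PGC-1, was 60.4 and 43.6 against 30.2 and 28.7 CPM. Ncoa1 (SRC-1) was 36.0 and 38.4 against 22.8 and 23.1 CPM, with a log2 fold change of 0.70 (SE 0.23; edgeR, adjusted p = 0.252), and Crebbp, a histone acetyltransferase gene, was 139 and 125 against 90.2 and 61.4 CPM. Ncoa3 (SRC-3) was 48.1 and 41.2 against 27.5 and 32.7 CPM. Corepressors had 4 of 9 positive (median -0.09) with 0 at an unadjusted p under 0.05. Nrip1 (RIP140) was 59.1 and 69.7 against 99.5 and 82.1 CPM, Hdac3 27.8 and 27.9 against 38.8 and 36.0 CPM, Ncor1 186 and 160 against 148 and 140 CPM and Gps2 19.7 and 14.5 against 15.01 and 9.25 CPM.

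Enzymes that make or remove receptor ligands spread from -2.69 to 1.99 on the log2 scale. Of 19 genes 15 were tested, 6 were positive, the median was -0.35 and 0 passed. At an unadjusted p under 0.05 there were 1 higher and 3 lower (edgeR). Cyp27a1, which makes oxysterols and bile acids, was higher at 14.8 and 31.1 against 3.09 and 8.46 CPM. Aldh1a3, which makes retinoic acid, was lower at 37.7 and 37.6 against 69.1 and 128 CPM (log2 fold change -1.39, SE 0.34; edgeR, adjusted p = 0.199). Ch25h, which makes an oxysterol, was 34.6 and 17.7 against 62.4 and 56.5 CPM. The third lower gene was Akr1c18, which inactivates progesterone, named after its values were seen, at 1.09 and 0.727 against 6.03 and 5.69 CPM. Aldh1a1 was 29.1 and 63.0 against 24.8 and 29.2 CPM. The more abundant retinoic acid synthase gene Aldh1a2, also chosen after its values were seen, was 358 and 240 against 341 and 380 CPM and overlapped.

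**Figure D5:**
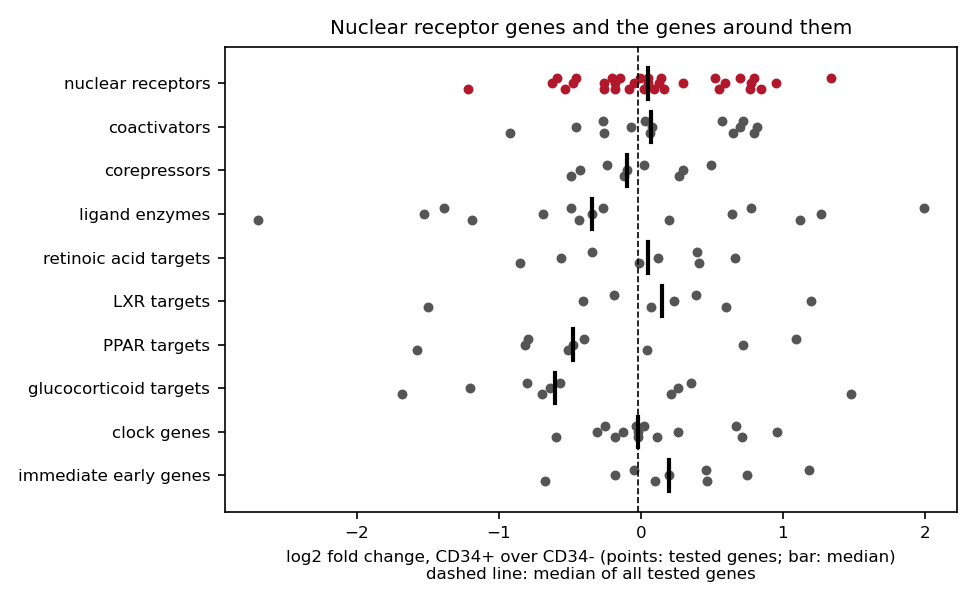
Log2 fold change of CD34+ over CD34- cells for tested receptor genes and for 9 lists of genes around them, with a point per gene, a bar at each list's median and a dashed line at the median of all tested genes (-0.02). Receptor genes spread from -1.22 to 1.34, and ligand enzymes from -2.69 to 1.99.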

How the data were processed

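Per the submitters' processing notes, Bowtie2, TopHat2, HTSeq and edgeR were used with the mouse build mm9; their versions, gene models and strandedness: not given in the sources used here. RNA was amplified from total RNA with MessageAmp, per the labels' protocols, so counts are not independent molecules. The authors deposited counts of reads per gene for 22609 genes, not normalized, and RPKM for the same genes, scaled to totals other than the sums of the counts. The deposited FPKM, called bias-adjusted, cover 22558 genes, and the deposited estimated counts of fragments that go with them were rounded here. A further 14 columns of every table match no sample of this series and were not used. Gene names are symbols in lower case, and no gene coordinates are given because the annotation at hand is of another build.

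Counts of all 4 libraries were tested with edgeR 4.0.16 (R 4.3.3): TMM scaling, filterByExpr, quasi-likelihood F test, group as the only term, two-sided, Benjamini-Hochberg over 13875 genes at 0.05. The fit has 2 residual degrees of freedom and 4.17 from moderation. CPM are TMM-scaled to the column total, log2 fold changes are CD34+ over CD34-, and the standard error is the fold change over the square root of F. Overlap of groups was judged on CPM unless another scale is named. Alternatives used DESeq2 1.42.0, limma 3.58.1, other scalings, filters and values, a block for the replicate number, and each library omitted once. The test was also tested on simulated counts, but no result of that is given here, so it says nothing of accuracy on these libraries. The sample titles call the replicates biological, and the number of animals behind each is not given, so p-values measure the spread between these libraries.

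The members and gene lists were chosen with earlier results of these data known. Members are described by role, and some items are not reported here though they count in the totals. From each pathway list up to 4 genes of smallest p with a mean of at least 5 CPM are named, and from each marker list the member with the highest RPKM. Without a stated strand setting, reads of antisense partners cannot be assigned.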

Additional observations from a re-analysis of the deposited data

How the results depend on the processing

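Receptor genes called stayed at 0 in each direction in all 15 alternatives except DESeq2, which called 1 lower. Over all genes, higher and lower calls were 396 and 180 with DESeq2, 194 and 137 without a filter, 39 and 23 with the replicate block, 5 and 7 with limma on log2(RPKM + 1), and 32 and 66 with a pseudocount of 0.1. Scaling by library total and a filter of 1 CPM in 2 libraries each called 2 higher. The median log2 fold change of the receptors was 0.05, and -0.0379 without a filter, -0.23 on log2(RPKM + 1) with or without the filter, -0.32 with a pseudocount of 0.1, and -0.0978 to 0.135 when a library was left out. The median of all genes was -0.11, -0.31 and -0.42 in the same settings other than the last, so the receptors moved with all genes there. As given above, RPKM are scaled to totals other than the sums of the counts. The part of that scaling was not tested. Leaving out a library, as 4 of the alternatives do, called 0 genes. It leaves a group with 1 library, assumed to vary like the other group, and edgeR called 0 of all genes with 4 libraries already, so these 0 calls say nothing of stability. Of 19 receptors whose fold change exceeded its standard error, 3 changed sign in some setting: Nr1h2 (-0.126, -0.131 with a pseudocount of 0.1, and -0.126 without a filter, all on log2 RPKM), Ppard (-0.399 without CD34+ replicate 1, up to 1.16 with other libraries left out) and Nr4a2 (-0.026 without CD34- replicate 1, up to 2.05). Of the 15 within their error, 13 did. The labels do not say that a replicate number marks shared animals, and the deviations of same-numbered libraries correlated at r = 0.241 over all genes and 0.065 over the receptors, a description from 2 pairs. With the replicate block 0 receptors were called, Rarb having an adjusted p of 0.0999 (edgeR). Counts near the limit of 3 bound what can be said of the 15 receptors not tested.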
